A study of Mus musculus with 12 samples.

Results

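The lincRNA-EPS and Ttc39a locus of the mouse was described here through its open chromatin, as the ATAC-seq peaks that lie on chromosome 4 between bases 109000000 and 109150000 of the mm9 build. All peaks of 12 libraries in this window were taken, and peaks that overlapped by at least 1 base were chained into 1 region. The window held 170 of 886143 peaks, which formed 19 of the 115231 regions of the whole series. ATAC-seq inserts sequencing adapters into accessible DNA with a transposase, and a peak marks a stretch where reads pile up above the local background. The cells were bone marrow-derived macrophages of female C57BL/6 mice, grown for 9 days with 20% L929 supplement, and 50000 cells went into each transposition. They were lincRNA-EPS knockout (KO) or wild type (WT), and were sampled at 0, 2 and 6 h of 100 ng/ml LPS, a bacterial cell wall component that activates macrophages through the receptor TLR4. Each of the 6 combinations of genotype and time had 2 libraries. The labels name the KO without describing the deleted stretch, and do not say whether libraries came from separate animals, so the tests below speak only of how far these libraries spread, which may be technical.

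lincRNA-EPS, annotated as Ttc39aos1, is a long noncoding RNA that was first described in erythroid cells, where it restrains apoptosis. In macrophages it is known to hold down immune response genes and to be lowered itself by TLR ligands. Ttc39a encodes a protein with tetratricopeptide repeats, which mediate contacts between proteins. In RefSeq's annotation of GRCm38.p6, Ttc39aos1 lies on the minus strand inside the span of Ttc39a, which lies on the plus strand. The span of Ttc39aos1 is 3979 bases and that of Ttc39a is 50603 bases. The neighbours before them are Eps15, an adaptor protein of endocytosis, the pseudogene Gm12749 and the noncoding Gm52702. Those after them are Rnf11, a RING finger protein of the ubiquitin system, 4930522H14Rik and the small nucleolar RNA Gm22497. An mm9 gene annotation was not used here, so peaks are given by position and are not assigned to exons, introns or start sites, the deleted gene was not checked against the KO label, and macrophage marker genes were not checked.

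The promoters of both genes are shown because they are the regulatory sequence that the annotation ties to the locus. They are RefSeq's 250 bases before to 50 after a start of each gene in GRCm38.p6. That is a later build than that of the peaks, so they cannot be laid over the regions below. The Ttc39aos1 window is chr4:109406208-109406507 on the minus strand and the Ttc39a window is chr4:109415397-109415696 on the plus strand. Ttc39aos1 lies inside the Ttc39a span and before this Ttc39a window, so the window is not at the beginning of that span. Capitals mark matches to the motifs named after the sequences, on either strand.
Ttc39aos1: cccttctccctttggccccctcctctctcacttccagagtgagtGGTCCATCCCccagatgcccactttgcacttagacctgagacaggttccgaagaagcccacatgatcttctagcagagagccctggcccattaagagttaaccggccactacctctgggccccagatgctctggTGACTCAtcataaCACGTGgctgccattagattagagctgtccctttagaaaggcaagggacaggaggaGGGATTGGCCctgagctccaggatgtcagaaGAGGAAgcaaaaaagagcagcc
Ttc39a: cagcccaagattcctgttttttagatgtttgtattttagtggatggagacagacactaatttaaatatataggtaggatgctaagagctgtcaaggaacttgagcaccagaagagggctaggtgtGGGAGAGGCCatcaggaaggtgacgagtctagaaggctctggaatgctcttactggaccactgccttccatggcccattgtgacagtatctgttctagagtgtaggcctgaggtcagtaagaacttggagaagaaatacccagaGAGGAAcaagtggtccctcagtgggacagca
The Ttc39aos1 promoter was 54.7% G or C with 3 CG pairs, and that of Ttc39a was 47.0% with 1, against medians of 52.7% and 7 pairs over 32851 mouse promoters. The Ttc39aos1 promoter held an AP-1 match (TGANTCA, in 7.81% of promoters) and an E-box (CACGTG, 7.15%), at offsets of −72 and −59 bases from the gene's start. It also held NF-kB-type matches (GGGA and CC with any 4 bases between, 20.7% of promoters) at offsets of −206 and −3 from the start, and a GAGGAA of the PU.1 type (28.3%) after it. The Ttc39a promoter held 1 NF-kB-type match and 1 GAGGAA. Neither held the interferon-type motif (GAAA, any 2 bases and GAAA again, 3.44% of promoters), the GATA motif AGATAA (11.2%) or the C/EBP motif TTGCNNAA (10.8%). No motif searched overlapped another in these windows, and a match describes letters, not binding.

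Peaks were dense in the window. It held 127 regions per Mb, against 42.0 per Mb of chromosome 4 and 43.7 over all chromosomes, each measured to its last peak. Of its 19 regions, 10 were called in all 12 libraries, or 52.6%, against 37.2% of all regions. The number of peaks in the window was 15 and 12 in KO and 12 and 12 in WT libraries at 0 h. It was 16 and 13 in KO and 15 and 12 in WT at 2 h, and 17 and 15 in KO and 16 and 15 in WT at 6 h. The whole lists held 54771 to 91610 peaks. The lowest background under any peak of a library, used here as a measure of depth, was 1.43 to 3.35 reads. The KO 0 h replicate 2 library had both the shortest list and the lowest value of this background, and KO 6 h replicate 1 had the longest list and the highest. The regions are numbered 1 to 19 from low to high coordinate. The nearest regions left out by the limits were chr4:108989878-108990272, 9728 bases before the window, and chr4:109157146-109157656, 7146 bases after it.

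**Figure D1:**
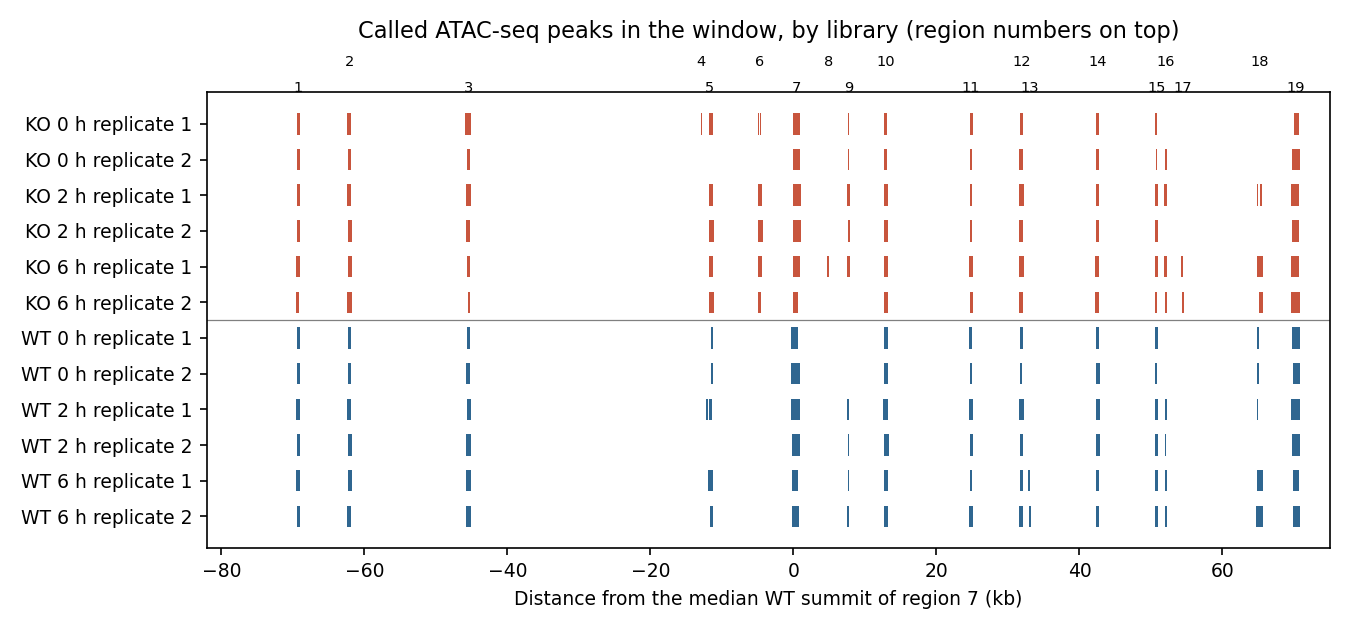
Each row is 1 library, with the 6 KO libraries (red) above the 6 WT libraries (blue). Bars are called peaks, drawn by their distance in kb from the median WT summit of region 7, and the numbers on top are the regions. Region 6, left of 0, has bars in 5 KO libraries and in 0 WT libraries.

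In these libraries, KO and WT differed in the position of a summit in 1 region and in the calls of its neighbour. Neither difference passed adjustment over the regions tested, and both were singled out after the values were seen. Region 7 (chr4:109078458-109079980) was called in all libraries, but its summit, the base with the most reads, lay further along the chromosome in every KO library. Region 6 (chr4:109073844-109074543), the next one before it, was called in 5 of 6 KO libraries and in 0 of 6 WT libraries. No library had a peak in the 3914 bases between both regions. Whether any DNA at or near these regions is absent from the KO was not tested. The differences are therefore not read as changes in accessibility.

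The summit of region 7 lay at base 109079179 and 109079285 in KO and at 109078883 and 109078851 in WT libraries at 0 h. At 2 h it lay at 109079331 and 109079304 in KO and at 109078869 and 109078878 in WT. At 6 h it lay at 109079121 and 109079278 in KO and at 109078853 and 109078872 in WT. The groups did not overlap, the nearest KO and WT summits were 238 bases apart, and the WT summits lay close together (SD 13.1 bases in WT, against 81.4 in KO, n = 6 each). The mean KO summit lay 382 bases after the mean WT summit, with 365, 444 and 337 bases at 0, 2 and 6 h (exact two-sided permutation p = 0.00926, genotype labels exchanged within time). That is the smallest exact p that 216 arrangements can give, and it did not pass Benjamini-Hochberg adjustment over the 42811 regions called in all libraries (adjusted p = 1). Summits without overlap between genotypes were found in 0.145% of those regions and in 1 of the 10 of the window. A summit difference at least as large was found in 41 of the 42811.

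The first base of region 7 lay further along in KO too. The region began at base 109078772 to 109078823 in KO libraries (median 109078794.5) and at 109078458 to 109078647 in WT (median 109078589). The mean KO start lay 223 bases after that of WT (exact p = 0.00926, adjusted p = 0.967). The closest KO and WT starts were 125 bases apart, and starts without overlap were found in 0.131% of regions and in 1 of the 10 in the window. The last base lay a mean of 123 bases further in KO (exact p = 0.102). The width was 1007 ± 150 bases in KO and 1107 ± 195 in WT (SD, n = 6 each, exact p = 0.222).

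**Figure D2:**
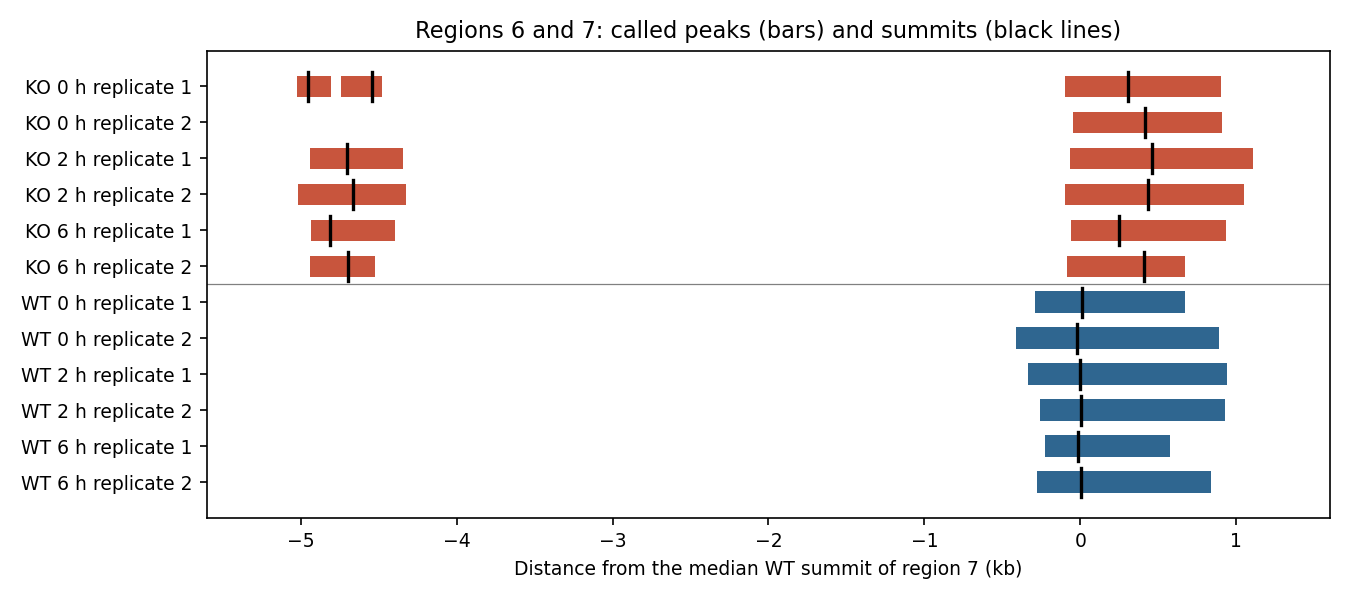
Called peaks (bars) and their summits (black lines) of regions 6 and 7, by distance in kb from the median WT summit of region 7, with KO libraries (red) above WT libraries (blue). The KO summits of region 7 all lie right of 0, the WT summits lie close to 0, and bars of region 6 stand only in KO rows, in all but KO 0 h replicate 2.

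Region 7 also had lower summit coverage in KO. This is the coverage at each library's own summit, which lay at different bases in KO and WT. Reads over the whole region are not in the lists and were not compared. The summit coverage of region 7, recovered from the deposited fold and p-value, was 36 and 36 reads in KO and 92 and 97 in WT at 0 h. It was 53 and 51 reads in KO and 98 and 93 in WT at 2 h, and 46 and 37 in KO and 70 and 63 in WT at 6 h. Every KO library lay below every WT library, with means of 43.2 ± 7.8 reads in KO and 85.5 ± 15.1 in WT (SD, n = 6 each). The fold over the local background was 6.99 ± 0.94 in KO and 9.06 ± 1.28 in WT, and the −log10 q was 22.2 ± 4.5 in KO and 51.5 ± 12.4 in WT. The local background at these peaks was itself lower in most KO libraries, at 3.64 to 7.82 reads in KO and 7.36 to 10.86 in WT.

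These values depend on depth, so each library's −log10 q was turned into its percentile among the 42811 regions, where 100 is the strongest. Region 7 stood at percentile 38.0 and 56.2 in KO and at 86.6 and 88.7 in WT at 0 h. It stood at 46.0 and 38.2 in KO and at 72.5 and 82.4 in WT at 2 h, and at 15.9 and 33.7 in KO and at 64.1 and 56.3 in WT at 6 h. The highest KO value, at 0 h, lay just under the lowest WT value, at 6 h, and within each time the genotypes were far apart. The mean was 38.0 ± 13.4 in KO and 75.1 ± 13.1 in WT (SD, n = 6 each), which is 37.1 points lower in KO (exact p = 0.00926, adjusted p = 0.632). The difference was −40.6, −35.3 and −35.4 points at 0, 2 and 6 h. With summit coverage over each library's median in place of the percentile, the log2 difference was −0.87 (exact p = 0.00926, adjusted p = 0.585).

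A percentile difference of this size was found in 3 of the 42811 regions, and the other two lie on chromosome X, at chrX:166410648-166411555 (−40.1 points) and chrX:166446464-166447054 (−40.2 points). Percentiles without overlap between genotypes were found in 0.175% of regions and in 1 of the 10 of the window. Region 7 was the 1 region of the 42811 in which the summit, the first base and the percentile were all without overlap. The summit and first base were chosen as measures after the values were seen, so this count describes region 7 and is no test.

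**Figure D3:**
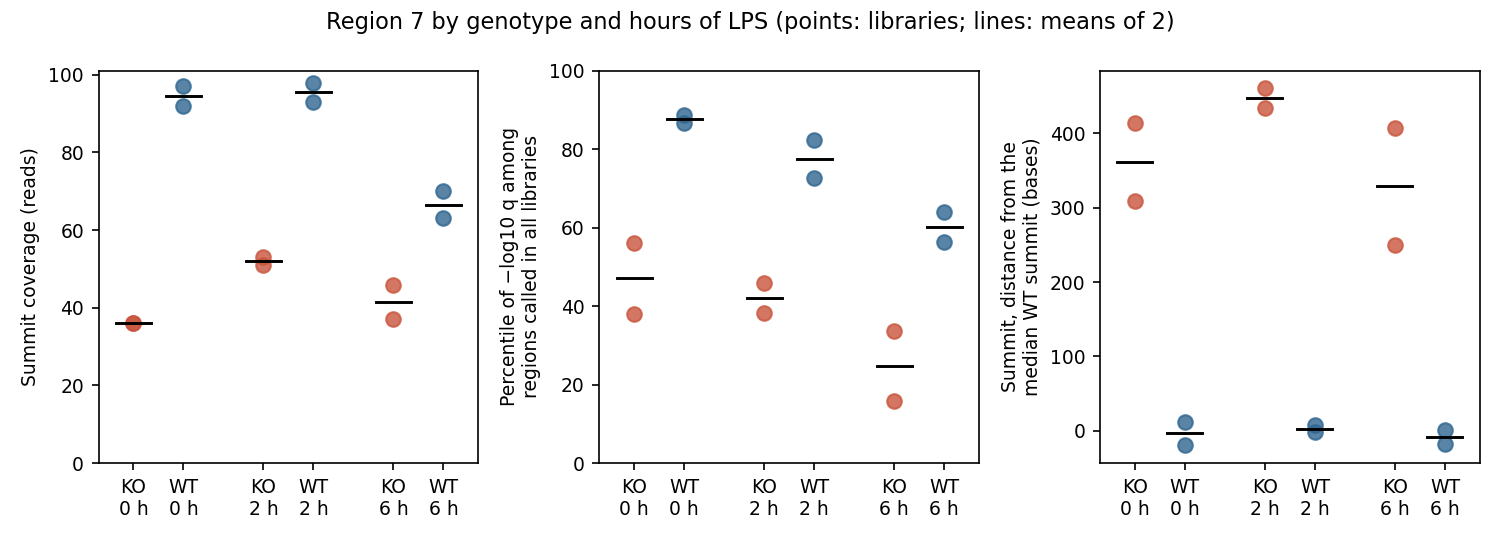
Region 7 in each library (points, with black lines at the means of 2) by genotype and hours of LPS, KO (red) left of WT (blue). The panels show summit coverage in reads, the percentile of −log10 q among regions called in all libraries, and the summit's distance in bases from the median WT summit; at each time both KO points lie on the same side of both WT points in all panels.

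In region 6, the −log10 q was 8.21 in KO 0 h replicate 1, 6.97 and 7.76 in the KO libraries at 2 h, and 11.5 and 9.72 in those at 6 h. Its fold over background was 4.30 to 5.37 and its summit coverage 19 to 28 reads, with a summit between bases 109074061 and 109074331. These are weak peaks of their libraries, between percentile 15.9 and 35.2 of the library's own list. KO 0 h replicate 2, the shallowest library, had no call, and KO 0 h replicate 1 had a pair of peaks there. Region 6 was singled out after its calls were seen, and in the exact permutation test over all 115231 regions its excess of 5 KO calls had an adjusted p of 1. When each list was shortened to the strongest 54771 peaks, the excess was 2 calls, and with coverage scaled to the shallowest library it was 5 as before. The lowest background under any peak of a library was 1.43 to 3.35 reads in KO and 2.18 to 3.03 reads in WT libraries. At the region 6 peaks themselves the background was 3.2 to 4.64 reads. The part of the background in the calls was not tested further. At least 5 KO calls with 0 WT calls were found in 0.0121% of regions and in 1 of the 19 in the window. Calls in all 6 KO and 0 WT libraries were found in 0.00174% of regions and in 0 of the window, which became 1, region 6, without KO 0 h replicate 2. Calls in all 6 WT and 0 KO libraries were found in 0.00868% of regions and in 0 of the window. Within a KO library the gap between the peaks of both regions was 4228 to 4434 bases (median 4334), and the summits were 4848 to 5162 bases apart. This gap is stated in mm9 and the span of Ttc39aos1 above in GRCm38.p6, and their positions were not compared.

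Among the other 9 regions called throughout, none had a summit that differed at an exact p under 0.05 (differences of 3.83 to 38.5 bases). In percentile, 4 of the 10 regions had an exact p under 0.05 for genotype, namely regions 2, 7, 15 and 19, against 6.35% of all 42811 regions. No region of the series passed adjustment, where the lowest adjusted p was 0.632, so none of these is a call.

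Region 19 (chr4:109148438-109149735) had the highest mean percentile of the window. Its lowest, median and highest percentiles were 62.5, 74.8 and 84.0 in KO and 82.8, 88.0 and 88.9 in WT. Only the top KO library, KO 6 h replicate 1, reached into the WT range. The difference was −13.0 points (73.9 ± 7.3 in KO and 87.0 ± 2.4 in WT, SD, n = 6 each; exact p = 0.00926, adjusted p = 0.632). In log2 coverage over the library's median the genotypes did not overlap (difference −0.30), as in 2 of the 10 regions and in 0.203% of all.

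Region 2 (chr4:109016461-109017136) had the highest fold of the window and went the other way. Its percentiles were 56.4, 74.3 and 85.6 in KO and 44.1, 56.6 and 69.8 in WT (lowest, median and highest). The genotypes overlapped, with a difference of 16.2 points (exact p = 0.0185, adjusted p = 0.685). Ranked by fold in place of −log10 q, it was 6.35 points (exact p = 0.157). Region 15 (chr4:109129391-109129892) was weaker, with percentiles of 4.16, 15.5 and 25.0 in KO and 12.6, 32.3 and 50.02 in WT. Its difference was −16.5 points (exact p = 0.0185, adjusted p = 0.685), and the genotypes overlapped. In log2 coverage, 5 of the 10 regions had an exact p under 0.05, against 6.5% of all, the fifth being region 12.

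The 6 remaining regions overlapped between genotypes, with exact p of 0.0741 to 0.991 in percentile. Region 1 (chr4:109009316-109009870) had percentiles of 34.1, 50.5 and 56.4 in KO and 20.0, 36.3 and 71.9 in WT. Region 3 (chr4:109032958-109033755) had 6.33, 16.3 and 34.4 in KO and 1.501, 12.6 and 30.2 in WT. Both spread as widely within a genotype as between them. Region 10 (chr4:109091384-109092217) was among the strongest, with percentiles of 63.8, 77.8 and 87.8 in KO and 59.8, 78.8 and 92.1 in WT. Region 11 (chr4:109103370-109103972) was weak, with 0.067, 15.2 and 33.2 in KO and 0.503, 4.80 and 38.2 in WT. Neither genotype was consistently above the other in these. Region 12 (chr4:109110403-109111133) had 16.4, 22.5 and 51.6 in KO and 8.51, 15.6 and 27.3 in WT (exact p = 0.0741). Region 14 (chr4:109121095-109121700) had 18.8, 46.2 and 49.3 in KO and 28.2, 36.5 and 60.9 in WT. The fold over background ran from 3.74 to 15.1 over these 10 regions and 12 libraries.

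**Figure D4:**
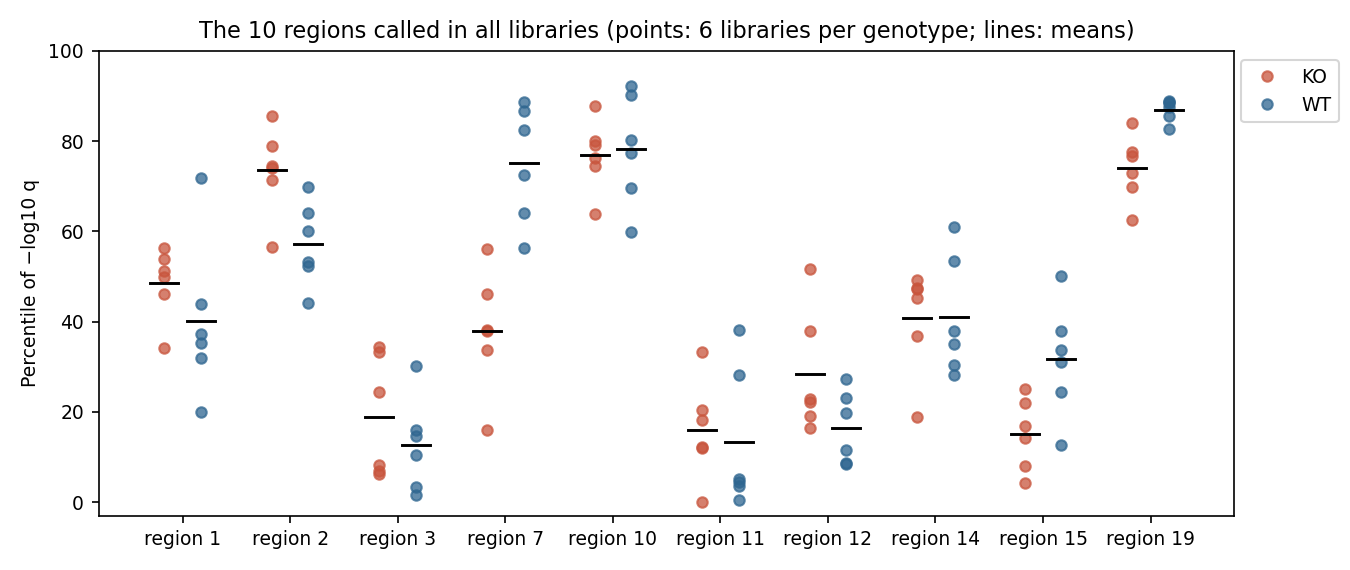
Percentile of −log10 q of the 10 window regions called in all libraries, with KO (red) left of WT (blue), 6 points per genotype and black lines at the means. Region 7 is the one in which the points of the genotypes do not overlap, and regions 10, 11 and 14 overlap throughout.

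The 9 regions not called in all libraries had −log10 q of at most 16.3. Region 5 (chr4:109066678-109067714) was called in 5 KO and 5 WT libraries with a fold of 4.31 to 7.21, and KO 0 h replicate 2 and WT 2 h replicate 2 lacked it. Region 9 (chr4:109086349-109086718) was called in 5 KO libraries, all but KO 6 h replicate 2, and in the 4 WT libraries of 2 and 6 h, with a fold of 4.13 to 6.33. Region 16 (chr4:109130656-109131144) was called in 4 KO and 4 WT libraries with a fold of 3.10 to 4.46, in 1 of 4 libraries at 0 h, 3 of 4 at 2 h and 4 of 4 at 6 h. Calls in region 16 were thus fewer at 0 h than at 6 h in both genotypes. In region 9 this held in WT (0 and 2 calls), whereas KO had 2 calls at 0 h and 1 at 6 h. The region 16 peaks were weak, at percentiles of 0.406 to 17.1 of their own lists. Whole lists held 54771 to 67128 peaks at 0 h and 78766 to 91610 at 6 h. The part of list length in these calls was not tested.

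Region 18 (chr4:109143620-109144575) was called in 3 KO and 5 WT libraries. At 0 h it had peaks of 247 and 307 bases in WT, with summits at 109143857 and 109143807, and none in KO. At 2 h the highest peak had its summit at 109144239 in KO replicate 1 and at 109143774 in WT replicate 1, and the other 2 libraries had none. At 6 h it spanned 852 and 655 bases in KO and 862 and 849 in WT, where WT replicate 1 had a pair of peaks within that span. The summit of the highest peak lay between 109144308 and 109144389 in all 4 libraries at 6 h. The other peak of WT replicate 1 had its summit at 109143811, among the summits of 0 h. As the region was missing from 4 libraries this was not tested.

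The last 4 regions were each called in 1 or 2 libraries. Region 4 (chr4:109065880-109066079) was called in KO 0 h replicate 1 alone and region 8 (chr4:109083596-109083904) in KO 6 h replicate 1 alone, with −log10 q of 5.98 and 10.4. Region 17 (chr4:109133106-109133454) was called in both KO libraries at 6 h, with −log10 q of 4.29 and 7.92. Region 13 (chr4:109111699-109112065) was called in both WT libraries at 6 h, with −log10 q of 5.92 and 4.41. All lay in the weaker part of their lists, at percentiles of 1.54 to 30.9.

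Within single times, few regions of the window were called in both libraries of one genotype and in neither of the other. With 2 libraries a group the smallest exact permutation p is 0.333, so these are given as counts. At 0 h, 1 region was KO-only (region 9, against 0.505% of all regions) and 1 was WT-only (region 18, against 2.45%). At 2 h, 1 was KO-only (region 6, against 1.22%) and 0 were WT-only (against 1.34%). At 6 h, 2 were KO-only (regions 6 and 17, against 1.91%) and 1 was WT-only (region 13, against 1.2%). Of 19 regions, these are counts of 0 to 2, too few to set apart from those shares.

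Under LPS, no region of the window was gained or lost in all 4 libraries by 2 h, against 0.789% gained and 0.00434% lost over all regions. None was gained or lost by 6 h, against 5.54% gained and 0.127% lost. Within KO, 0 regions were gained by 2 h (against 5.01%) and 2 by 6 h (regions 17 and 18, against 12.5%). Within WT, 2 were gained by 2 h (regions 9 and 16, against 2.97%) and 3 by 6 h (regions 9, 13 and 16, against 9.89%). The KO and WT counts were not tested against each other.

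In percentile, 0 of the 10 regions had an exact p under 0.05 between 2 h and 0 h, against 6.76% of all, and 0 of 10 between 6 h and 0 h, against 23.4%. The smallest p that 4 libraries against 4 allow is 0.0286. Region 7 had a mean percentile of 42.5 ± 21.9 at 6 h, against 67.4 ± 24.6 at 0 h (SD, n = 4 each), a difference of −24.9 points (exact p = 0.200, adjusted p = 0.384). Its libraries differ by genotype, and within each genotype both 6 h libraries lay below both 0 h libraries, with mean differences of −22.3 points in KO and −27.5 in WT. With labels exchanged only within genotype the exact p was 0.0556, the smallest that 36 arrangements allow. Such a pattern, 6 h below 0 h in both genotypes, was found in 15.6% of all regions. Region 15 went the opposite way, by 11.7 points in KO and 16.3 in WT, as 14.3% of all regions did. In regions 3, 11, 12 and 19 the mean 6 h difference had opposite signs in KO and WT. It was −18.4 points in KO and 13.7 in WT at region 3, and −3.33 in KO and 30.8 in WT at region 11. These patterns by genotype were not tested. At 2 h, region 7 differed from 0 h by −7.60 points (exact p = 0.629).

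**Figure D5:**
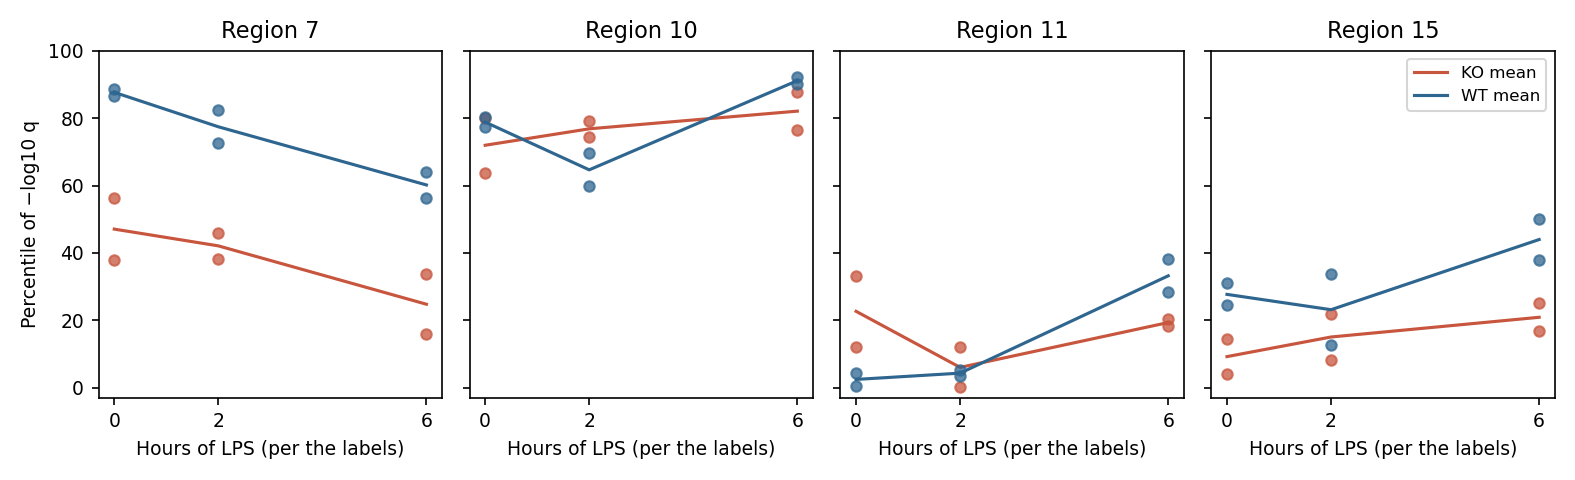
Percentile of −log10 q against hours of LPS at regions 7, 10, 11 and 15, with points for libraries and lines through the means of 2 for KO (red) and WT (blue). Region 7 is lower at 6 h than at 0 h in both genotypes and its KO line lies below its WT line at all 3 times, whereas in regions 10 and 11 the lines cross.

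Over the 12 libraries, the regions elsewhere whose percentiles ran most like those of region 7 were chr12:33594682-33595370 (Pearson r = 0.922), chr2:18615462-18616451 (r = 0.908) and chr12:8457240-8457944 (r = 0.902). For region 19, the strongest of the window, they were chrX:46469369-46470115 (r = 0.924), chr10:125162337-125163066 (r = 0.920) and chr12:87010969-87011487 (r = 0.916). These are the highest of 42811 correlations over libraries that share genotype, time and depth, and are given as a description.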

How the data were processed

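The authors deposited 1 peak list per library, called with MACS2 on reads aligned with Bowtie2 2.1.0 to mm9, with Picard also named, per the submitters' processing notes; the labels do not state the settings. Each deposited peak has a position, a score, a fold over local background (a ratio), a −log10 p-value, a −log10 q-value and a summit. Read totals are not in these lists, so depth is given as the lowest background reads under any peak of a library. Summit coverage and background were computed from fold and p, and 100% of peaks gave whole reads within 0.001 in log10. The fold is the authors' value of that peak in that list.

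Peaks of the 12 lists were chained where they overlapped by at least 1 base, and the highest peak by −log10 q stands for a region in a library. Calls were compared as present or absent. Percentiles of −log10 q were taken among the 42811 regions called in all libraries, which compares order and not accessibility itself. Exact permutation tests exchanged genotype labels within time (216 arrangements) or time labels (70), with Benjamini-Hochberg adjustment over all regions; with so few arrangements, an adjusted p under 0.05 would need a large share of all regions at the smallest p. Python 3.11.15, numpy 2.4.6, pandas 2.3.3, scipy 1.17.1 and matplotlib 3.10.9 were used, and the tests were tested on simulated data.

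Values are given in every library, or by range, for the regions called throughout, for those specific to a group, and for the other regions called in most libraries, where regions 16 and 18 tied at 8 libraries. The window, lists and measures were chosen with earlier results of these data known, and the summit, first base and coverage measures, and the closer look at region 6, after the values were seen. The peak names in the 4 libraries labelled 2 h say 1 h, and the labels were followed. No 2 lists were identical. Alternatives were other ways to join peaks, stricter or equal-length lists, scaled coverage, other ranks, a replicate block and leaving out each library.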

Additional observations from a re-analysis of the deposited data

Results flagged for a closer look

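Of 54 sets of libraries of 1 genotype or 1 time (percentiles of the 10 regions called throughout, and the summit and first base of region 7), 1 held a library far from the others by Dixon's criterion at the 95% level. In region 10, KO 0 h replicate 2 stood at percentile 63.8, against 77.4 to 80.2 in the other libraries at 0 h. It is the library with the shortest list and the lowest background. Chance sets about 1 in 20 such sets apart.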

How the results depend on the processing

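The shift of region 7 kept its direction and its exact p under 0.05 in every alternative run. These runs reuse the same libraries, and the summit and first base were chosen after the values were seen. They are therefore no independent test. Leaving out each library gave −40.1 to −34.1 percentile points, a summit 356 to 408 bases and a first base 202 to 244 bases further in KO. Region 6 had a KO excess of 2 calls with lists of equal length, of 5 with coverage scaled to the shallowest library, and of 4 to 5 in the leave-one-out range. Its exact permutation p, for a region singled out after its calls were seen, was 0.0278 before adjustment. That p was 0.5 with lists of equal length and up to 0.0556 in the leave-one-out range. Joining peaks by fixed windows of 500 bases gave 1 KO-only and 1 WT-only window over all times. These hold the KO and the WT summits of region 7, which fell in neighbouring windows, so they are no further sites, and they count at each time too. The same joining gave 2 KO-only and 2 WT-only at 0 h, 2 and 2 at 2 h, 2 WT-only at 6 h, and 1 gained by 6 h of LPS. Equal lists gave 0 KO-only and 0 WT-only at 0 h, 0 KO-only at 2 h, and 0 of both at 6 h. A −log10 q of at least 5, and coverage scaled to the shallowest library, each left 1 KO-only region at 6 h. Leaving out 1 library moved KO-only counts to 1 to 3 at 0 h, 1 to 2 at 2 h, 2 to 3 at 6 h and 0 to 1 over all times. It moved WT-only counts to 1 to 2, 0 to 1 and 1 to 2 at 0, 2 and 6 h, with 0 over all times. The libraries behind these moves were both KO 0 h libraries, KO 2 h replicate 1, WT 2 h replicate 1 and both KO 6 h libraries. It also gave 0 to 1 regions gained by 6 h, where KO 0 h replicate 2 decides, and 0 to 1 regions under 0.05 at 2 h and at 6 h of LPS. Regions under 0.05 for genotype numbered 2 to 5, with 2 without KO 2 h replicate 1. Region 2 gave 12.5 to 20.0 points with exact p up to 0.0741, region 15 gave −20.1 to −13.0 with p up to 0.0648, and region 19 gave −16.6 to −9.47. Same-numbered libraries did not deviate together (correlations of −0.012 to 0.035 over 15 pairs of groups). The labels do not say whether they share more than a number. With the replicate number as a block, region 7 gave −37.1 points with exact p = 0.0312. Region 6 keeps its excess of 5 calls under any block, and its exact permutation p was 0.0625. The block changed no other call. Outside these, no result reversed, and the cause of each move was not tested. Read totals are unknown, so what depth limits is known only through the background reads.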
